A study of Mus musculus with 24 samples.

Results

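The miRNAs miR-221 and miR-222 were followed through every column of a mouse small-RNA series on acetaminophen injury. They were picked by name: the mature entries mmu-miR-221-3p and mmu-miR-222-3p, 2 of 1915 mature entries, and the hairpin entries mmu-mir-221 and mmu-mir-222, 2 of 1186 hairpin entries. A miRNA is cut from a hairpin precursor and guides a silencing complex to messenger RNAs through pairing of its seed, bases 2 to 8. The pair is encoded side by side on the X chromosome and carries 1 seed. Its best-studied targets are the cyclin-dependent kinase inhibitors Cdkn1b (p27) and Cdkn1c (p57), which hold cells out of the cell cycle, and the receptor Kit. In liver the pair is known for its link to hepatocyte growth and liver cancer, and it is also abundant in endothelial cells.

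The mature sequences below show the shared seed, given in capitals, and were taken from RefSeq on GRCm38.p6. They run 5′ to 3′, and all lie on the minus strand. The 3p arms of the pair map to chrX:19146307-19146329 and chrX:19146901-19146923.
mmu-miR-221-3p: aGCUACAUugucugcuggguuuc
mmu-miR-222-3p: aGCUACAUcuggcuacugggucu
mmu-miR-1928: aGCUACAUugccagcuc
The first 8 bases of miR-221-3p and miR-222-3p were identical, as were 11 of their 23 positions. Of 1679 mature sequences in the RefSeq table, 3 had this seed, the third being miR-1928 at chr1:74206562-74206578, which shares its first 10 bases with miR-221-3p. The deposited tables listed miR-1928 at 0 in all 12 mature columns, and its hairpin reached 25.9 counts over all 12 columns together. In hepatocyte and liver columns that hairpin had at most 1.33 counts, but in serum exosomes with acetaminophen and G-CSF it had 15.7, above the 8.9 of mir-221 and the 1 of mir-222.

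The hairpins are shown because the hairpin table held most of the counts and because mir-221 often received a fractional count. Capitals mark the 3p arm.
mmu-mir-221: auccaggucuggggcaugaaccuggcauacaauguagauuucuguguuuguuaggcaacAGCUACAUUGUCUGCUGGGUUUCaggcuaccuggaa
mmu-mir-222: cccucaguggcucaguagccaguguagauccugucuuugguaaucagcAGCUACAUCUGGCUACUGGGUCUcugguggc
They occupy chrX:19146294-19146388 and chrX:19146893-19146971, 504 bases apart. No other gene of GENCODE vM21 overlapped them, so both are intergenic in that annotation. The nearest gene on the mir-222 side, the processed transcript Gm14636 on the same strand, lay 10009 bases away. The hairpins had no identical run longer than 9 bases in common. Neither had one longer than 12 bases in common with any other of the 1005 hairpins in the RefSeq table. The deposited counts list 1186 hairpins, and those without a sequence in the RefSeq table were not searched. The count of mir-222 was whole in 6 of the 9 columns that held any, and that of mir-221 in 2 of 12. How fractional counts arose was not tested.

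The series covers 4 materials: liver, cultured primary hepatocytes, exosomes from serum and exosomes from hepatocyte culture medium. Each material had an untreated control, acetaminophen, and both acetaminophen and G-CSF (granulocyte colony-stimulating factor), a cytokine that mobilises granulocytes. Acetaminophen was given at 500 mg/kg and G-CSF at 100 µg/kg for liver and serum, and at 20 mM and 1 µg/ml for hepatocytes and their exosomes. The sources used here give neither strain, age, sex nor exposure times, nor how many mice or cultures made up a sample. The 24 samples (1 per condition on each of 2 sequencers) had been combined by the authors into 12 columns. No condition therefore had a replicate, and a comparison of 2 columns compares those columns and not the conditions. For the 2 serum columns with acetaminophen, sample titles and treatment field assign G-CSF in opposite ways. The treatment field was followed here, while the column names follow the titles.

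Depth set what could be seen. Mature totals ran from 4450 to 49330 counts in hepatocytes and liver, and hairpin totals from 111316 to 1307523. Untreated serum exosomes held 6515 mature and 181243 hairpin counts, and the other 5 exosome columns held 47 to 692 mature and 167 to 4026 hairpin counts. The acetaminophen liver column stood apart, with 5.65 hairpin counts per mature count against 25.1 to 33.7 in the other hepatocyte and liver columns. The hepatocyte markers miR-122-5p, miR-192-5p and miR-194-5p together made up 13.9% to 26.4% of hepatocyte columns and 14.8% to 42.0% of liver columns, in keeping with both labels.

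Levels are given first as a share of all counts in the column. For mature miR-221-3p, liver gave 56 counts (0.113%) untreated, 20 (0.102%) with acetaminophen and 123.5 (0.283%) with G-CSF added. Hepatocytes gave 16 counts (0.0598%), 2 (0.0375%) and 0 in the same order. Every liver column lay above every hepatocyte column, a pattern that was not counted over all entries. For mature miR-222-3p, liver gave 34 counts (0.0689%), 22 (0.112%) and 100 (0.229%). Hepatocytes gave 31.33 counts (0.117%), 1 (0.0188%) and 0. Here the groups overlapped, since untreated hepatocytes exceeded the untreated and the acetaminophen liver columns. In the hepatocyte column with 0 counts, 3 counts of the total would have been 0.0674%, so a share up to that level could have been missed. These limits and all intervals cover counting error only, and the reads carry no stated molecular identifiers.

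The hairpin entries, with far more counts, ordered these columns by share in the same way for miR-221. For miR-222 untreated and acetaminophen liver changed places, the acetaminophen column being higher in mature counts and lower in hairpins. Liver held 4134 counts of mir-221 (0.316%) untreated, 274.7 (0.247%) with acetaminophen and 6752 (0.616%) with G-CSF added. Hepatocytes held 970.2 counts of mir-221 (0.116%), 149 (0.0829%) and 67 (0.0481%). The 2 materials did not overlap for mir-221, which was likewise not counted over all hairpins. Liver held 2001 counts of mir-222 (0.153%), 153 (0.137%) and 3566 (0.325%). Hepatocytes held 1782.5 counts of mir-222 (0.213%), 97 (0.0540%) and 22 (0.0158%). For mir-222 the untreated hepatocytes ranked between the liver columns, while both treated hepatocyte columns lay below all 3 liver columns. Untreated serum exosomes held 434.5 counts of mir-221 (0.240%) and 111 of mir-222 (0.0612%).

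Ordered by share over the 7 columns of liver, hepatocytes and untreated serum exosomes, mir-221 was highest in liver with G-CSF. Untreated liver, acetaminophen liver, untreated serum exosomes, untreated hepatocytes, acetaminophen hepatocytes and hepatocytes with G-CSF followed. Only acetaminophen liver and serum exosomes had overlapping 95% exact binomial intervals in that order, at 0.219% to 0.278% and 0.218% to 0.263%. For mir-222 the order was liver with G-CSF, untreated hepatocytes, untreated liver, acetaminophen liver, serum exosomes, acetaminophen hepatocytes and hepatocytes with G-CSF. Untreated liver (0.146% to 0.160%) and acetaminophen liver (0.117% to 0.161%) overlapped, as did serum exosomes (0.0504% to 0.0738%) and acetaminophen hepatocytes (0.0438% to 0.0658%). In rank among the hairpins of a column, mir-221 was at place 27 in untreated serum exosomes and from place 50 (liver with G-CSF) to place 110 (hepatocytes with G-CSF) in the other 6 columns. Hairpin mir-222 was at place 71 in untreated serum exosomes and from place 59 (untreated hepatocytes) to place 156 (hepatocytes with G-CSF) in the other 6.

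**Figure D1:**
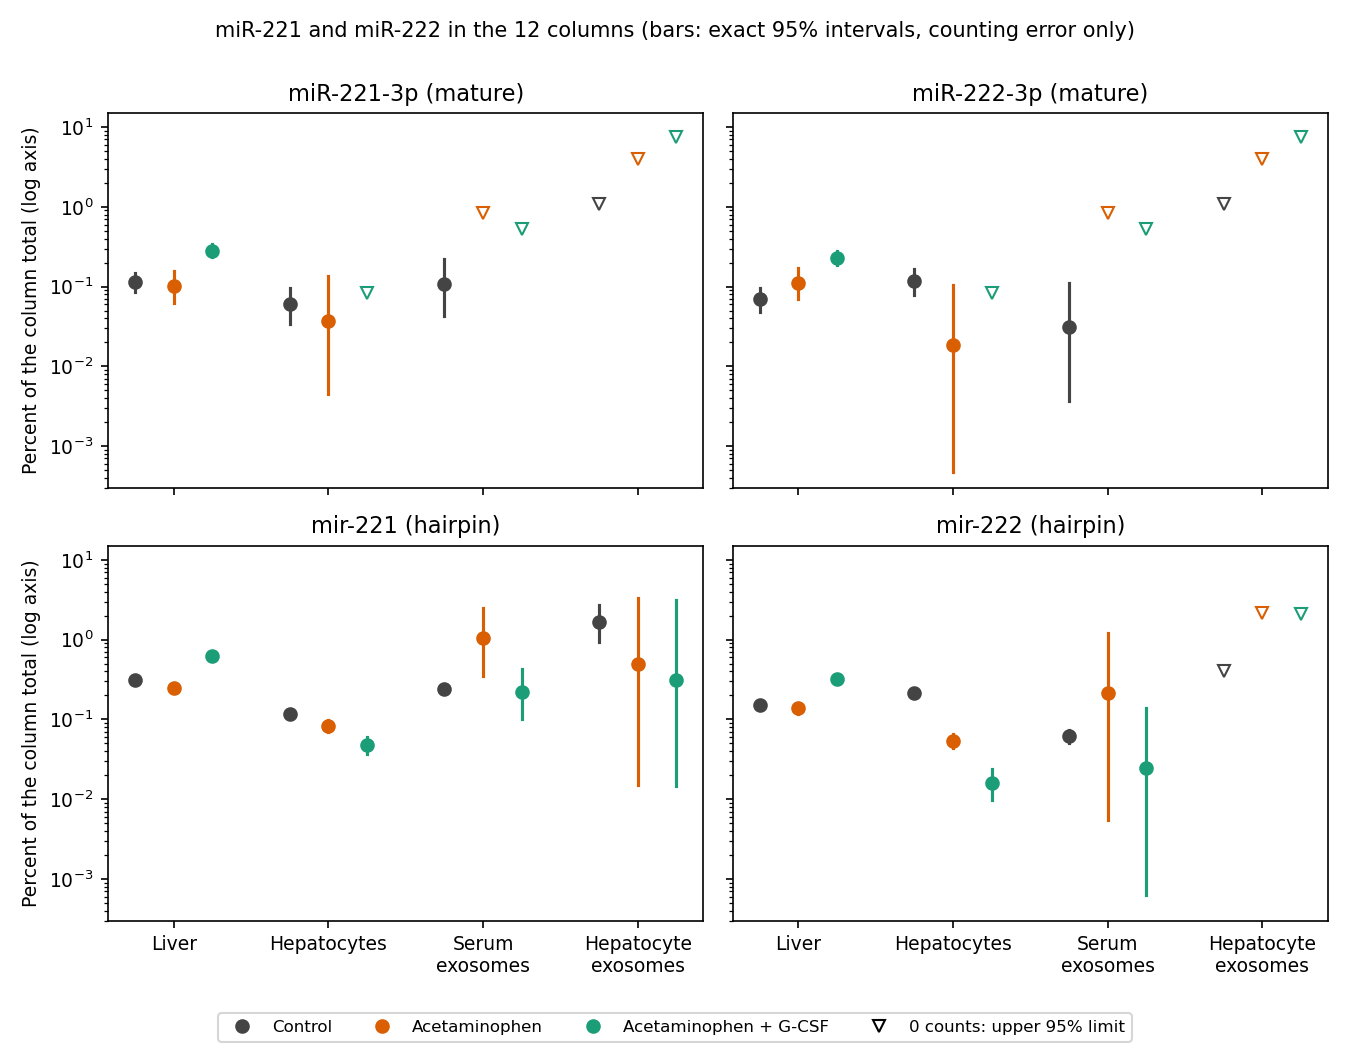
Share of all counts in each column (percent, log axis) for the mature entries and the hairpins of the pair in the 12 columns, with bars for the 95% exact binomial interval of the counting error and open triangles for the upper limit where no count was seen. Liver columns sit above hepatocyte columns for mir-221 (0.247% to 0.616% against 0.0481% to 0.116%), whereas mir-222 in untreated hepatocytes (0.213%) sits among the liver columns.

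The arm opposite the counted one was nearly absent. Mature miR-221-5p had 1 count in untreated liver and 2 in liver with G-CSF, and miR-222-5p had 1 count in untreated hepatocytes. The listed 5p sequence of miR-221 is shown with its seed in capitals, which differs from that of the 3p arm.
mmu-miR-221-5p: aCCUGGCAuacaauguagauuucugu
In the columns with at least 10 mature counts, mir-221 had 54.7 to 73.8 hairpin counts per miR-221-3p count, apart from 13.7 in acetaminophen liver. The same ratio for mir-222 was 35.7 to 58.8, and 6.96 in acetaminophen liver. The pair thus shared the low ratio of that column, and its mature and hairpin shares there are not on equal footing with the other columns.

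Culture against liver was compared over the 3 columns of each material, with the treatments standing as replicates, so the spread includes the treatment differences. The summed mature share of the pair was 0.0778% ± 0.0904 (SD, n = 3) in hepatocytes and 0.302% ± 0.182 (SD, n = 3) in liver, a 3.89-fold lower mean in culture. The summed hairpin share was 0.176% ± 0.137 (SD, n = 3) against 0.598% ± 0.300 (SD, n = 3), 3.39-fold lower. Neither sum overlapped between materials, and the two-sided exact permutation p was 0.1 for both, the smallest that 3 against 3 columns allow. How many of all entries were without overlap was not counted. With column totals as the only scaling, the median log2 fold was -1.05 over mature entries and -1.06 over hairpins. A lower share in culture was therefore common and not particular to the pair. By hairpin, the mean share was 4.78-fold lower in hepatocytes for mir-221 (exact permutation p = 0.1, no overlap) and 2.18-fold lower for mir-222 (exact permutation p = 0.3, overlapping).

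On the scale of trimmed mean of M values (TMM), which removes a shift common to most entries, no member passed edgeR's quasi-likelihood test at an adjusted p of 0.05. The log2 fold in hepatocytes was -1.51 (SE 1.04, adjusted p = 0.368) for miR-221-3p and -0.72 (SE 1.05, adjusted p = 0.714) for miR-222-3p. It was -1.54 (SE 0.788, adjusted p = 0.225) for mir-221 and -0.26 (SE 0.971, adjusted p = 0.885) for mir-222. For comparison, 8.33% of the 180 mature entries tested and 8.03% of the 498 hairpins tested passed in either direction, and the median log2 fold was -0.49 for mature entries and -0.38 for hairpins. With TMM factors mir-221 thus lay below the hairpin median and mir-222 near it. The folds of the members with other scalings are not set beside a median here. The hairpin median was -1.06 with column totals as the only scaling and -0.07 with DESeq2 size factors. The share of higher calls moved with it, from 22.5% of the hairpin calls to 15.5% and 39.3%, and among mature calls from 33.3% to 12% with column totals.

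The untreated hepatocyte column decided the hairpin result. Without it, the log2 fold of mir-221 was -2.12 (edgeR, adjusted p = 0.0353) and that of mir-222 was -2.08 (edgeR, adjusted p = 0.0479), both past the threshold, but so were 30.7% of 488 hairpins tested then. The direction for mir-222 turned when either treated hepatocyte column or the liver column with G-CSF was left out, to 0.11, 0.26 and 0.47.

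**Figure D2:**
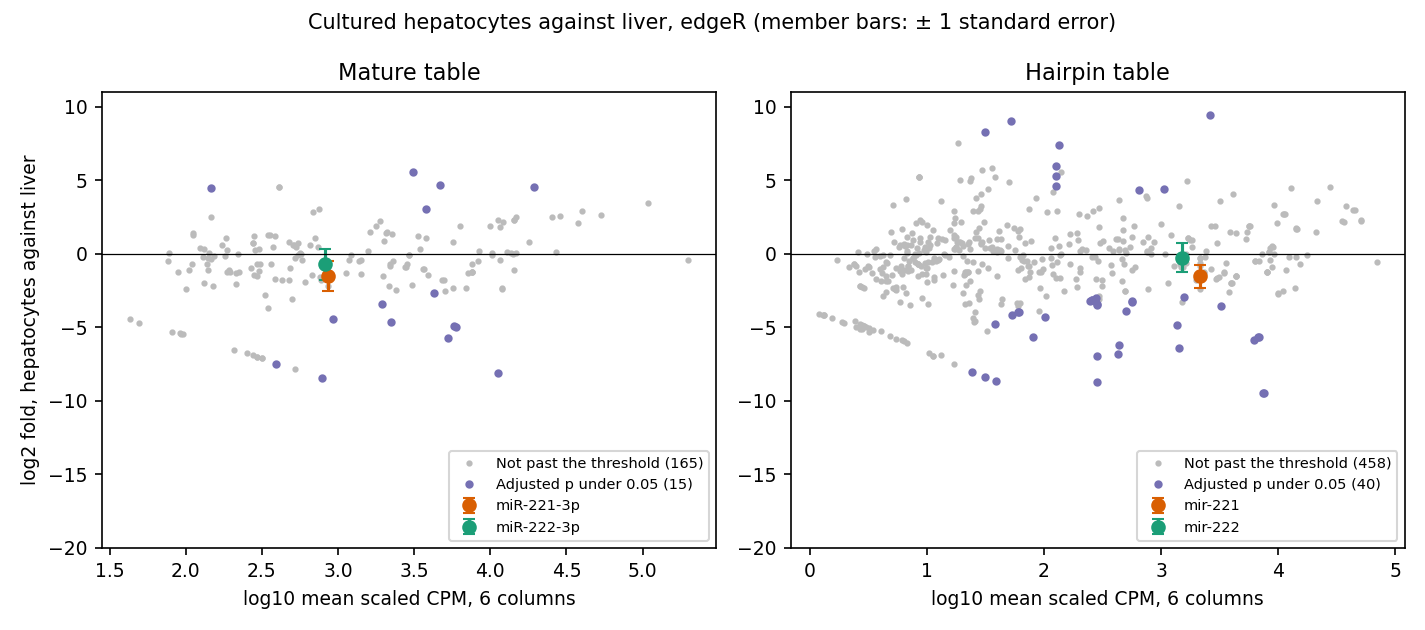
Log2 fold of cultured hepatocytes against liver (vertical axis) against log10 mean scaled CPM over 6 columns (horizontal axis), for 180 mature entries and 498 hairpins, with calls at adjusted p under 0.05 in purple and the pair in colour with bars of 1 standard error. The bars of mir-222 (-0.26) cross 0, those of mir-221 (-1.54) do not reach it, and none of the members is among the calls.

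Matching columns by treatment separated the members. Untreated, the share of mir-221 was 2.73-fold lower in hepatocytes than in liver (95% interval 2.55 to 2.93), whereas that of mir-222 was 1.39-fold higher (1.30 to 1.48). With acetaminophen, mir-221 was 2.98-fold lower (2.43 to 3.66) and mir-222 2.55-fold lower (1.96 to 3.32). With G-CSF added, mir-221 was 12.8-fold lower (10.1 to 16.6) and mir-222 20.6-fold lower (13.6 to 32.9). The gap between culture and liver was thus widest under acetaminophen with G-CSF for both hairpins, and only untreated mir-222 was on the other side. These ratios of shares include the shift seen over hairpins, with a median log2 fold of -1.06 under column totals. On the TMM scale the gaps were smaller where hepatocytes lay below liver. For mir-221 the TMM gap was 1.49-fold in controls, 2.02-fold under acetaminophen alone and 9.4-fold under both drugs. For mir-222 it was 1.72-fold under acetaminophen alone and 15.1-fold under both drugs. Untreated mir-222 was 2.55 times its level in liver on that scale.

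Liver is a mixture of cell types, and fewer cells of a type cannot be told apart from less RNA per cell. Marker sums of 5 other cell types were lower in hepatocyte columns than in liver columns, as shares of mature counts. How often this holds over all entries was not counted. Of the 180 mature entries tested, 5.56% passed edgeR's test as lower in culture. The endothelial pair miR-126a-3p and miR-126a-5p, of a cell type in which miR-221 and miR-222 are also known, summed to 0.333% to 1.76% of hepatocyte columns and 2.03% to 2.89% of liver columns, with 0 of 2 past the test (edgeR; 0 at an unadjusted p under 0.05 and 0 with DESeq2). On the fitted scale these 2 markers had opposite signs, -1.09 for miR-126a-3p and 1.18 for miR-126a-5p. The 4 leukocyte markers summed to 0% to 0.0225% in hepatocytes and 0.176% to 0.642% in liver, with 2 of 3 tested lower in culture. The 5 mesenchymal and stellate markers summed to 0.00686% to 0.166% and 1.81% to 2.34%, with 3 of 5 lower, and the 4 erythroid markers to 0% to 0.0188% and 0.195% to 6.37%, with 1 of 4 lower. The 5 biliary and epithelial markers summed to 0% to 0.00374% in hepatocytes and 0.0446% to 0.112% in liver, and none reached the count needed for the test. None of these markers was at 0 in all 6 columns. Their part in the lower share of the pair in culture was not tested. Within hepatocytes the endothelial sum was 0.333% untreated, 1.76% with acetaminophen and 1.24% with G-CSF added.

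Within cultured hepatocytes, mir-222 was far lower with acetaminophen than without. Columns were called different when 1 of them held at least 10 counts, the scaled ratio was at least 2-fold and its exact 95% interval excluded equality. In acetaminophen hepatocytes mir-222 was 4.82-fold lower than in untreated ones (95% interval 3.93 to 5.97), which was called, as were 31.3% of 307 hairpins in that direction and 61.9% in either. The level of mir-221 was 1.71-fold lower (1.44 to 2.04) and was not called. The intervals of the 2 hairpins did not overlap, so the members differed in these columns by more than counting error. Without the low-count filter before scaling the log2 ratio of mir-221 was -1.46 in place of -0.77, which is past 2-fold.

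Adding G-CSF to acetaminophen went with a further lower level in hepatocytes. Compared with acetaminophen alone, mir-222 was 3.12-fold lower (1.95 to 5.21) and called, as were 14.0% of 235 hairpins in that direction, while mir-221 was 1.58-fold lower (1.17 to 2.14) and not called. Compared with untreated hepatocytes, both hairpins were called lower, mir-222 by 15.05-fold (9.91 to 24.1) and mir-221 by 2.69-fold (2.10 to 3.50), as were 31.7% of 293 hairpins. Both hairpins were thus lower at each step over the 3 columns, mir-222 by more than mir-221. The mature counts were too low to follow it. With acetaminophen, miR-221-3p was 1.52-fold lower (0.357 to 13.6) and miR-222-3p 5.89-fold lower (0.982 to 240.0), and both intervals included equality. In that comparison 53.0% of 100 mature entries were called in either direction. Against a floor of 3 counts in the hepatocyte column with G-CSF, miR-222-3p was at least 1.54-fold lower than in untreated hepatocytes, which stays under the 2-fold needed, and miR-221-3p could not be given a fold past equality. In that comparison 52.0% of 100 mature entries were called.

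In liver with acetaminophen alone both hairpins were lower, while the mature entries were level or higher. With G-CSF added all were higher. With acetaminophen, mir-221 was 1.43-fold lower (1.27 to 1.63) and mir-222 1.25-fold lower (1.06 to 1.48), neither called, against 35.8% of hairpins called in either direction. Mature miR-222-3p went the other way, 1.81 times its untreated level (1.01 to 3.19), and miR-221-3p had a ratio of 1.00 (0.568 to 1.69), against 50.3% of 161 mature entries called. This is the column with few hairpin counts per mature count. The erythroid marker sum was also highest there, at 6.37% of mature counts against 0.195% in untreated liver, and its part in the pair's values was not tested.

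With G-CSF added to acetaminophen in liver, mir-221 was 2.61 times (2.31 to 2.95) and mir-222 2.47 times (2.10 to 2.93) the level with acetaminophen alone. Both were called higher, as were 17.4% of 380 hairpins. Mature miR-221-3p was 2.25 times that level (1.39 to 3.80) and called, as were 17.2% of 163 mature entries, while miR-222-3p was 1.65 times that level (1.03 to 2.74) and not called. Against untreated liver, miR-221-3p was 2.25 times (1.63 to 3.14) and miR-222-3p 2.98 times (2.002 to 4.54) as high, both called, as were 15.7% of 172 mature entries. The hairpins were 1.82 times (1.75 to 1.89) and 1.98 times (1.88 to 2.09) as high, just under the 2-fold needed, against 18.3% of 465 hairpins called higher. With column totals the log2 ratio of mir-222 was 1.09 in place of 0.99, which passes it. In the liver column with G-CSF every entry of the pair was at its highest share of the hepatocyte and liver columns, and in the hepatocyte column with G-CSF each was at its lowest of the hepatocyte columns.

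**Figure D3:**
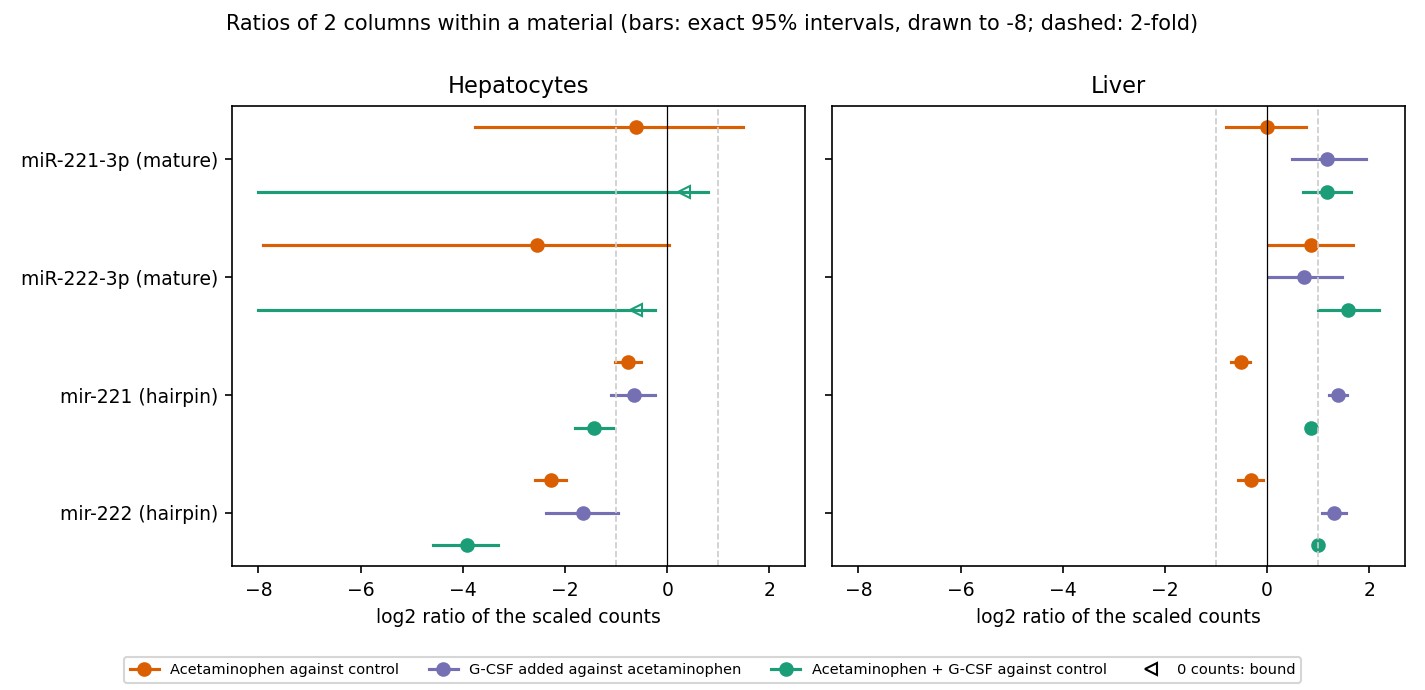
Log2 ratio of 2 columns of the same material for the pair, with bars for the exact 95% interval of the counting error (ending near the left edge where no lower limit exists), open triangles for bounds against a floor of 3 counts and dashed lines at 2-fold. The hepatocyte ratios of mir-222 are the farthest below 0 (-2.27 with acetaminophen, -3.91 with G-CSF added, both against control), and the liver ratios with G-CSF against acetaminophen lie above 0 for both hairpins (1.38 and 1.31).

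Over both materials together, columns with acetaminophen were compared with controls in a fit with material as a term. No member passed edgeR's test. The log2 fold was -0.26 (SE 1.13, adjusted p = 0.945) for miR-221-3p, -0.79 (SE 1.25, adjusted p = 0.848) for miR-222-3p, -0.57 (SE 0.799, adjusted p = 0.849) for mir-221 and -1.68 (SE 0.891, adjusted p = 0.358) for mir-222. In this comparison 1.11% of mature entries and 4.02% of hairpins passed. Among those hairpin calls 70.0% were higher, and 94.7% with column totals. Without the untreated liver column, the difference rests on the hepatocytes alone and on 1 control column, assumed to vary like the others. There miR-222-3p (-3.83, edgeR adjusted p = 0.0416) and mir-222 (-3.10, edgeR adjusted p = 0.00909) passed, as did 21.4% of 173 mature entries and 20.8% of 427 hairpins. Without the untreated hepatocyte column, which leaves the liver and its 1 control column, all 4 members were positive without passing, at 0.57, 1.14, 0.34 and 0.49 in the order above. Without the hepatocyte column with G-CSF, miR-221-3p was also positive, at 0.21.

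The difference between materials in the acetaminophen difference was tested with a material by acetaminophen term. For mir-222 it was -3.57 on the log2 scale (SE 1.27, edgeR adjusted p = 0.0777), hepatocytes minus liver, short of the threshold. For miR-222-3p it was -4.54 (SE 1.98, edgeR adjusted p = 0.184). The terms for mir-221 and miR-221-3p were -1.65 (SE 1.20, edgeR adjusted p = 0.501) and -2.05 (SE 1.83, edgeR adjusted p = 0.593). All 4 terms were negative and none passed, whereas 9.44% of mature entries and 4.82% of hairpins passed in either direction. The difference between the terms of miR-222 and miR-221 was not tested. Of the hairpin calls 41.7% were higher, and 57.1% with column totals. Without the acetaminophen liver column, which stood apart, the remaining treated liver column was assumed to vary like the others, and the term passed for mir-222 (-4.18, edgeR adjusted p = 0.00309) and for miR-222-3p (-5.44, edgeR adjusted p = 0.0116). In that fit it passed for 14.0% of 494 hairpins and 15.8% of 177 mature entries.

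The make-up of the pair differed between the hepatocyte columns and was nearly the same in the liver columns. Hairpin counts are not divided by length (95 and 79 bases), so the part of mir-222 in the summed pair is compared between columns only. In liver it was 32.6% (31.4 to 33.8), 35.8% (31.2 to 40.5) and 34.6% (33.6 to 35.5) in the untreated, the acetaminophen and the G-CSF column. In hepatocytes it was 64.8% (62.9 to 66.5), 39.4% (33.3 to 45.8) and 24.7% (16.2 to 35) in the same order. The intervals of untreated and acetaminophen hepatocytes did not overlap, and the untreated column stood above all liver columns. The mature counts gave 66.2% (50.7 to 79.1) in untreated hepatocytes and 37.8% (27.8 to 48.6), 52.4% (36.4 to 68.0) and 44.7% (38.0 to 51.4) in liver. Untreated hepatocytes were thus the highest of these in mature counts too, but their interval was apart from that of untreated liver only. Mature and hairpin counts come from the same libraries.

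Averaged over treatments, the mir-222 share of the pair was higher in hepatocytes by less than the spread between columns, at 43.0% ± 20.3 (SD, n = 3) against 34.3% ± 1.59 (SD, n = 3), with a two-sided exact permutation p of 0.7. Without the untreated hepatocyte column the difference changed from 8.65 to -2.24 percentage points. The spread over treatments was larger in hepatocytes (24.7% to 64.8%) than in liver (32.6% to 35.8%). In untreated serum exosomes mir-222 made up 20.3% (17.1 to 24.0) of the pair, below every liver column.

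**Figure D4:**
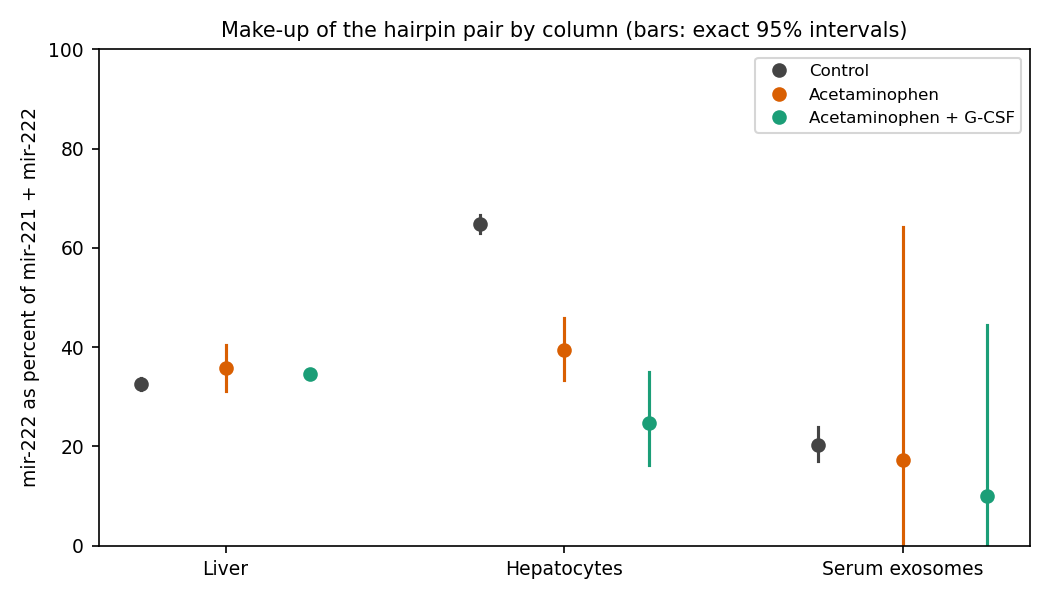
Part of miR-222 in the summed counts of the pair (percent, linear axis) by column, with bars for the 95% exact binomial interval. The 3 liver columns lie between 32.6% and 35.8% in the hairpin table, and the hepatocyte columns run from 64.8% untreated to 24.7% with acetaminophen and G-CSF.

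Exosome columns held few counts of the pair, and their shares are imprecise. Untreated serum exosomes held 7 counts of miR-221-3p (0.107%, 95% exact interval 0.0432 to 0.221) and 2 of miR-222-3p (0.0307%, 0.00372 to 0.111), and the other 5 exosome columns held 0 of either. Those zeros allow shares of up to 0.434% to 6.38%, above the share in any liver column, so presence was not detectable at this depth. Hairpin mir-221 had 15.3 counts in untreated hepatocyte exosomes (1.68%, 0.924 to 2.70), the highest share of mir-221 in the 12 columns, and under 1 count in both treated columns, and mir-222 had 0 in all 3. With 910.7 hairpin counts in that untreated column, a count of 0 allows mir-222 up to 0.329%, which is above its 0.213% in the parent hepatocytes. The count of mir-221 in that column was fractional. No hepatocyte exosome ratio was called, against 12.5% of 16 and 11.8% of 17 hairpins called for acetaminophen and for G-CSF added, each against control.

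In serum exosomes with acetaminophen, mir-221 had 4.77 counts of 460.3 (1.04%), 4.78 times its untreated share (1.54 to 11.2), a call made for 6.57% of 198 hairpins in that direction. The sign rested on scaling by column totals: with TMM factors the log2 ratio was -3.75 and with DESeq2 size factors -4.91, settings that were added after seeing the data. With the serum columns exchanged, as the titles have them, it was -0.0920. With G-CSF added, mir-221 had 8.9 counts and mir-222 had 1, with ratios of 0.938 (0.426 to 1.80) and 0.408 (0.0102 to 2.32) to the untreated column, neither called, against 44.4% of 243 hairpins. No direction for the pair in serum exosomes held over these settings.

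Other miRNAs linked to growth were set beside the pair. The list held 12 mature miRNAs: miR-21a-5p, miR-31-5p, miR-155-5p and members of the miR-17-92 and miR-106b-25 clusters, all tested. In culture against liver, 1 of 12 was higher, miR-155-5p (log2 5.53, edgeR adjusted p = 0.0187), an inflammation-linked miRNA, and 0 were lower, with 5 of 12 under 0.05 unadjusted and 4 past DESeq2's adjusted threshold. Over all mature entries 2.78% were higher and 8.33% passed in either direction, so the count of the list was near the background. Of the 180 mature entries tested, 61 were under 0.05 unadjusted, and DESeq2's test called 20 higher and 16 lower. The call for miR-155-5p rested on the treated hepatocyte columns (0.863% with acetaminophen, 0.584% with G-CSF added). Untreated, its share was lower in hepatocytes (0.00748%) than in liver (0.0203%), both from few counts. Its hairpin mir-155 was also lower by share in untreated hepatocytes (0.0350% against 0.0480%). In scaled CPM that hairpin was higher there (549 against 411). The median log2 fold of the list was 0.71, against -0.49 over all mature entries and -1.51 and -0.72 for the pair. The 14 hairpins of the list had 0 calls with edgeR (6 under 0.05 unadjusted, 1 with DESeq2) and a median of 1.06. Of the 498 hairpins tested, 140 were under 0.05 unadjusted, and DESeq2's test called 40 higher and 44 lower. Within the list, miR-93-5p (-1.38) and miR-31-5p (-0.72) had values in the range of the pair.

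In the difference between materials in the acetaminophen difference, 3 of 12 were lower and 1 higher, where 3.33% of all mature entries were lower and 6.11% higher. Mature miR-21a-5p, widely raised in injured and growing tissue, made up 20.7% of untreated hepatocytes and 1.09% with acetaminophen, against 0.587% and 2.50% in liver (term -5.91, edgeR adjusted p = 0.000253). Mature miR-19a-3p of the miR-17-92 cluster had a term of -3.39 (edgeR adjusted p = 0.0482), and miR-19b-3p had -3.25 (edgeR adjusted p = 0.0547). The remaining lower call was miR-18a-5p, with 0 counts in both treated hepatocyte columns, so its fitted size depends on the prior count. The higher call was miR-155-5p (7.37, edgeR adjusted p = 0.000874). Among the hairpins of the list, 6 of 14 were lower, mir-21a, mir-31, mir-19a, mir-19b-1, mir-19b-2 and mir-18a, of which the mir-19 entries can share reads, where 2.81% of all hairpins were lower. The list medians were -2.32 and -2.66, against -0.30 and -0.23 over all entries. The mir-222 term of -3.57 had the same sign, was smaller in size than each of these 6 hairpin terms and did not pass the test.

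A list of 10 miRNAs known to restrain growth (let-7a, b and c, miR-15a, miR-16, miR-26a, miR-29a, miR-34a, miR-101a and miR-195a) had 1 lower call in culture, let-7b-5p (log2 -2.69, edgeR adjusted p = 0.0498), where 5.56% of all mature entries were lower, and a median of -0.82. Its 14 hairpins had 0 calls in culture (edgeR; 6 under 0.05 unadjusted, 4 with DESeq2). Neither table had a call for this list in the difference between materials (edgeR; 0 mature and 3 hairpins under 0.05 unadjusted, 0 with DESeq2). Of 7 hepatocyte-enriched miRNAs, among them miR-122-5p at 14.1% of untreated hepatocytes and 23.6% of untreated liver, 0 passed in culture against liver (edgeR; 2 under 0.05 unadjusted, 2 with DESeq2). Over all entries, 61 of 180 mature entries and 140 of 498 hairpins were under 0.05 unadjusted in culture against liver. DESeq2's test called 20 mature entries higher and 16 lower there, and 40 hairpins higher and 44 lower. In the difference between materials, 33 mature entries and 97 hairpins were under 0.05 unadjusted.

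The entries most like the pair over the 6 columns of hepatocytes and liver were ranked by Pearson's r with the summed level (log2 of scaled CPM plus 1), as a description of 6 points that share libraries. Among 496 other hairpins these were mir-24-1 and mir-24-2 (0.976 each, with near-identical levels), mir-128-1 (0.972), mir-128-2 (0.969) and mir-532 (0.963). Among 178 other mature entries these were miR-374b-5p (0.976), miR-455-3p (0.975), miR-1843a-5p (0.967), miR-1843b-5p (0.960) and miR-99b-5p (0.956). All 5 mature entries had 0 counts in the hepatocyte column with G-CSF, as the pair had, and that column weighs heavily in r. Between the 2 members r was 0.986 for mature entries and 0.850 for hairpins.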

How the data were processed

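Small RNA from the 4 materials was, per the labels' protocols, isolated with a Norgen kit and made into Ion Total RNA-Seq Kit v2 libraries. The authors deposited estimated counts (expected counts) per mature miRNA and per hairpin, with both instruments combined, per the file headers. The sources used here name no aligner, annotation or build. Deposited counts were rounded for model fits.

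Members and lists were chosen with earlier results of these data known. The members, their opposite arms, entries of the same seed, up to 4 members per list with the largest mean count, list members that passed, and the 5 most similar entries were named. Tests across columns used edgeR 4.0.16 (R 4.3.3, limma 3.58.1): the quasi-likelihood F-test on 6 columns, TMM factors, entries with at least 10 counts in 1 column, Benjamini-Hochberg over all tested. Treatments or materials stood as replicates, and p-values measure only the spread between those columns. The SE is the log2 fold divided by the square root of F. Ratios of 2 columns used TMM factors per material. In exosomes column totals were used, a rule set after seeing the data. In serum exosomes under 50% of the entries past the filter were shared by all 3 columns. In hepatocyte exosomes too few entries were shared for TMM factors, 11 of 17 among hairpins. Intervals are exact 95% ones (Clopper-Pearson, scipy 1.17.1), and a count of 0 was set to a floor of 3 counts. The scripts were tested on simulated data.

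Alternatives were DESeq2 1.42.0 size factors and Wald test, column totals, no low-count filter, a treatment term, scaling without 3 abundant miRNAs, exchanged serum columns and leaving out each column. Fits on separate sequencers could not be made.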

Additional observations from a re-analysis of the deposited data

Results flagged for a closer look

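The acetaminophen difference of mature miR-222-3p pointed in opposite directions in the 2 materials: both acetaminophen columns lay below the control in hepatocytes, and both lay above it in liver. The difference between them was -4.54 on the log2 scale, hepatocytes minus liver, with an adjusted p of 0.184 in edgeR's test, so it was not past the threshold. In hepatocytes it rests on 31.33, 1 and 0 counts. The hairpin mir-222 in the acetaminophen liver column was lower than in untreated liver, unlike the mature entry.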

How the results depend on the processing

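Replicates or instruments could not be paired, because each column combines both instruments of a condition and carries no replicate number. Hepatocyte and liver columns can be paired by treatment, which the main culture test and the permutation did not use. With treatment as a term, edgeR called 3 mature entries higher and 7 lower in culture, and 19 hairpins higher and 37 lower. No member passed in that fit. Of 281 alternative values, 205 were labelled the same, for direction and side of the threshold kept or a move counted as small. A further 58 were labelled moved, 12 reversed and 6 past the threshold in addition. The 6 were all from fits, and ratios of columns could turn sign or pass the fold threshold without those labels. In serum exosomes with acetaminophen, mir-222 turned sign under TMM, DESeq2 and exchanged columns, and was labelled moved or the same. Without the filter, mir-221 in acetaminophen hepatocytes passed the fold threshold and was labelled moved. Exact permutation p could not fall under 0.1. Causes were not tested.

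In culture against liver, mature calls numbered 15, and 7 with DESeq2 size factors or without abundant miRNAs, 25 with column totals and 36 with DESeq2's test. Hairpin calls numbered 40, and 71 with column totals, 64 without the filter and 84 with DESeq2's test. For acetaminophen against control, 2 mature calls became 0 without the filter (edgeR, 33 under 0.05 unadjusted, 2 with DESeq2 on filtered entries), and 20 hairpin calls became 3 without the filter and 36 with DESeq2's test. For the difference between materials, 17 mature calls became 10 with column totals and 4 without the filter, and 24 hairpin calls became 9 without the filter.

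Leaving out each column gave these lowest and highest values. In culture against liver: 0 to 29 mature calls (0 without the hepatocyte column with G-CSF, with 44 under 0.05 unadjusted by edgeR), 6 to 150 hairpin calls, miR-221-3p -2.34 to -1.08, miR-222-3p -3.04 to -0.28, mir-221 -2.12 to -0.87 and mir-222 -2.08 to 0.47. For acetaminophen against control: 0 to 37 mature calls (0 without acetaminophen liver, with 12 under 0.05 unadjusted by edgeR), 1 to 89 hairpin calls, miR-221-3p -1.93 to 0.57, miR-222-3p -3.83 to 1.14, mir-221 -1.32 to 0.34 and mir-222 -3.10 to 0.49. For the difference between materials: 5 to 28 mature calls, 7 to 69 hairpin calls, miR-221-3p -8.14 to -1.07, miR-222-3p -9.66 to -3.58, mir-221 -2.26 to -0.88 and mir-222 -4.76 to -2.86. The mir-222 part of the pair, hepatocytes minus liver, ran from -2.24 to 17.8 percentage points.

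Log2 ratios of columns moved as follows. In hepatocytes with G-CSF against control, miR-221-3p and miR-222-3p, both bounds against the floor, went from 0.33 and -0.62 to 0.86 and -0.0898 with DESeq2 size factors. Without the filter, mir-221 and mir-222 were -1.46 and -2.96 with acetaminophen and -2.16 and -4.64 with G-CSF added, and mir-221 with acetaminophen was -0.48 with column totals. In liver with G-CSF against control, mir-221 and mir-222 were 0.96 and 1.09 with column totals and 0.96 and 1.08 without the filter, and mir-221 was 0.78 with DESeq2 size factors. In serum exosomes with acetaminophen, mir-221 went from 2.26 to -3.75 (TMM), -4.91 (DESeq2) and -0.0920 (columns exchanged), and mir-222 from 1.90 to -4.11 and -5.26. With G-CSF added they went from -0.0920 and -1.30 to -5.70 and -6.90 (TMM), -7.26 and -8.46 (DESeq2), and 2.26 and 1.90 (exchanged). The TMM and DESeq2 settings for serum hairpins, and leaving out columns for the part of the pair, were chosen after seeing the data. Depth limits the mature entries most, with at most 2 counts in treated hepatocytes.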
